A study of Mus musculus with 11 samples.

Results

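Solute carriers are membrane proteins that move nutrients, ions and metabolites across the cell surface and between compartments, and their genes carry symbols that begin with Slc and a family number. The genes described here were chosen by symbol and by listing: protein-coding genes whose symbol begins with Slc followed by a digit and that the authors listed in both of their tables of normalised values. There were 172 such genes, of 371 protein-coding Slc genes in the count tables and of 10531 genes of any kind listed in both normalised tables. They belonged to 42 families, which were sorted by family number into 13 classes of substrate. The rule also takes in 3 genes that are not themselves carriers: Slc9a3r1, a scaffold protein named for the exchanger it regulates, Slc4a1ap, an adaptor protein, and Slc7a6os, named for its place on the strand opposite Slc7a6.

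RNA was measured in 11 libraries of mouse thymus cells sorted by flow cytometry (FACS) as negative for CD24 and for the T cell receptor beta chain. At P0, the day of birth, 3 genotypes were sampled with 2 libraries per genotype: Bcl11b +/+ as the control, then Bcl11b +/N440K, then Bcl11b D/N440K. At P7 the control, Tcf7 +/+, had 2 libraries, and the mutant, Tcf7 F/F : Vav1-Cre, had 3. In that mutant a floxed Tcf7 gene meets a Cre recombinase driven by Vav1, a promoter active in blood cells. Bcl11b and Tcf7 encode transcription factors of the T lineage, and N440K is a changed residue of the Bcl11b protein. The labels do not define the D allele, and both mutant groups at day 0 carry N440K. They do not say whether the replicates came from separate animals, so p-values measure only the spread between these libraries, which may be technical.

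Sugar, amino acid and monocarboxylate carriers at the surface feed glycolysis and protein synthesis and let lactate out, and their amounts are known to change as lymphocytes grow, divide or rest. The large neutral amino acid carriers load leucine and its kin, whose arrival is read by the mTORC1 growth pathway, and the SLC25 family carries metabolites across the inner mitochondrial membrane. Other families move zinc, iron, magnesium, phosphate, nucleosides, vitamins and, in the Golgi, nucleotide sugars.

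Total counts were 999381 to 1842717 per library. Bcl11b stood at 505.6 to 641.4 CPM in Bcl11b +/+ and at 151.6 to 225.0 in the libraries with N440K, while Tcf7 stood at 552.2 and 593.5 CPM in its controls and at 658.3 to 846.7 in Tcf7 F/F : Vav1-Cre, where counts over all exons do not show a deletion. CPM is a gene's count scaled to the size of its library, as the authors normalised it. Markers of other cells moved with genotype: the summed level of 11 genes of double-positive thymocytes, Cd24a and Rag1 among them, was 979.7 to 1032 CPM in Bcl11b +/+, 218.1 to 234.2 in +/N440K and 144.5 to 150.7 in D/N440K. The sum of 10 genes of natural killer cells and ILC1 was 582.1 to 709.8, 1378 to 1440 and 1664 to 1693 CPM in the same groups. The sum of 10 myeloid genes was 157.5 to 190.1, 268.5 to 302.0 and 358.8 to 376.6 CPM there, with Elane and S100a9 at 0, and it was 467.8 to 815.4 for Tcf7 +/+ against 1188 to 1339 for the Tcf7 mutant, with Elane at 0. The sum of 8 B cell genes was 428.4 to 432.7, 318.8 to 332.1 and 230.0 to 251.8 CPM in the 3 Bcl11b groups, with Ms4a1 and Pax5 at 0, and 724.3 to 743.8 against 329.9 to 348.8 in the Tcf7 table. Erythroid genes summed to 29.06 to 62.4 CPM in Bcl11b +/+, 12.83 to 28.56 in +/N440K and 92.49 to 123.2 in D/N440K. In the Tcf7 mutant 8 of 10 tested double-positive genes fell and 2 rose (median log2 -2.04), although their sum was 1120 to 1181 against 1197 to 1247 CPM, and 6 of 10 natural killer and ILC1 genes fell and 1 rose (median -1.21). Sums over 9 stromal and epithelial genes were 209.7 to 248.5 CPM in the Tcf7 controls and 367.8 to 404.3 in the mutant, and those over 6 mast cell and basophil genes 18.59 to 22.55 and 62.87 to 88.71. The sorted population's own genes, such as Cd3e, Il2rb and Trdc, were present in every group, at 3492 to 5454 CPM in sum over 10 genes. Of these 10, 2 rose and 5 fell in +/N440K, 2 rose and 4 fell in D/N440K, and 2 rose and 6 fell in the Tcf7 mutant, Cd3d there at log2 -6.25 (edgeR adjusted p = 2.67e-10). For reference, of all genes tested 4.79% rose and 5.3% fell in +/N440K, and 6.1% rose and 6.31% fell in D/N440K. In the Tcf7 mutant 12% rose and 11.1% fell, by the test described below. The part of these cell types in the results below was not tested.

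Per kilobase of exon, which allows genes to be compared, Slc9a3r1 had the highest level of the 172 genes in each of the 5 groups. In Bcl11b +/+ it stood at 137 ± 13.1 CPM per kilobase (SD, n = 2). Next came Slc1a5 (ASCT2), which takes up glutamine and other neutral amino acids, at 97.1 ± 3.88, and Slc7a5 (LAT1), which takes up leucine and other large neutral amino acids, at 83.2 ± 4.89 CPM per kilobase. Slc2a1 (GLUT1), the widely expressed glucose carrier, stood at 68.9 ± 0.407, and Slc35c1, the Golgi carrier of GDP-fucose, at 65.8 ± 4.14 CPM per kilobase, a gap smaller than the spread of Slc35c1. Mitochondrial carriers followed, with Slc25a11 (oxoglutarate and malate) at 56.3 ± 7.31 and Slc25a5 (an ADP/ATP carrier) at 55.0 ± 6.52 CPM per kilobase, which overlapped. In Tcf7 +/+, in a table normalised separately, Slc7a5 stood at 63.5 ± 8.48 CPM per kilobase (SD, n = 2). Slc44a2, a choline transporter-like protein, stood at 62.8 ± 6.10, and these 2 lay within their spread of each other. Below both came Slc25a5 at 55.6 ± 7.03 and Slc1a5 at 54.2 ± 2.38 CPM per kilobase, a gap smaller than the spread of Slc25a5. Of the 172 genes, 36 had a mean over 100 CPM in Bcl11b +/+ and 8 a mean under 10. Summed over all 172, the genes made up 13388 to 13482 CPM in Bcl11b +/+, 12786 to 12798 in +/N440K, 12631 to 12726 in D/N440K, 12523 to 13171 in the Tcf7 controls and 12744 to 13314 in the Tcf7 mutant.

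**Figure D1:**
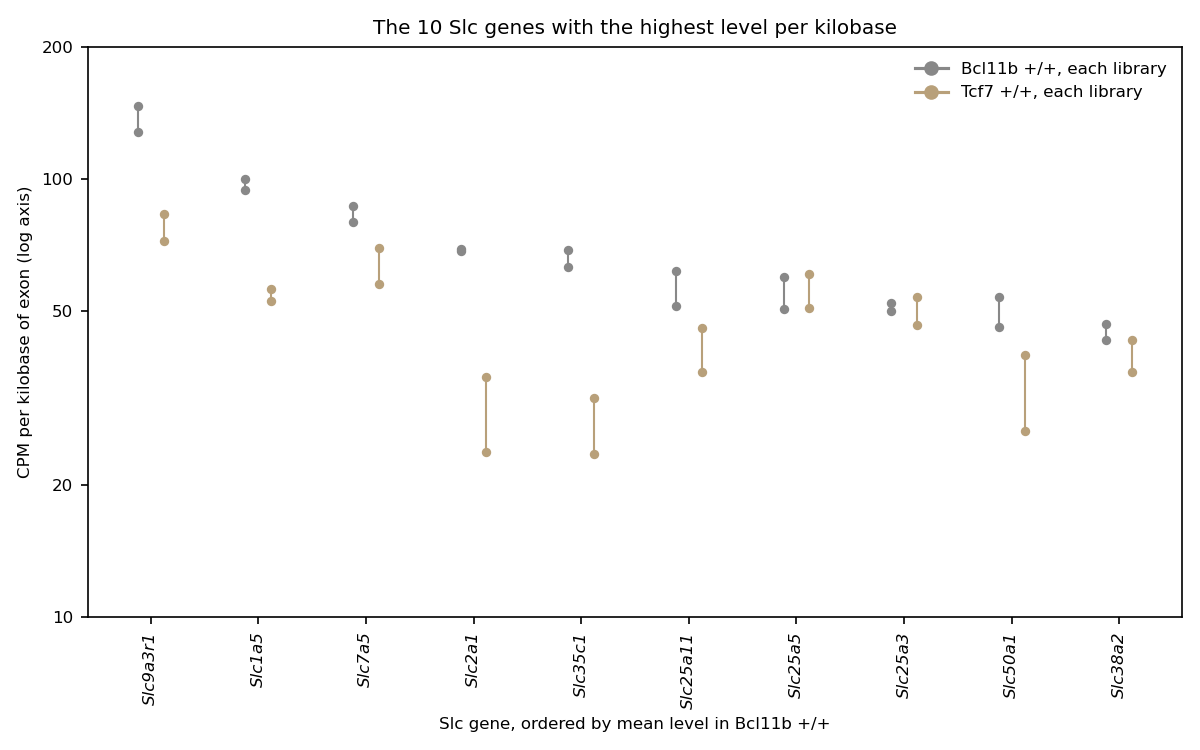
CPM per kilobase of exon (log axis) of the 10 Slc genes with the highest mean level in Bcl11b +/+, with a point per library and a line joining the 2 libraries of a group; grey is Bcl11b +/+ at day 0 and tan is Tcf7 +/+ at day 7, from tables normalised separately. Slc9a3r1 leads in both groups, and Slc1a5 and Slc7a5 follow it in Bcl11b +/+.

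The first question was which carriers change with each mutation. A gene was called changed at a Benjamini-Hochberg adjusted p under 0.05 in edgeR's quasi-likelihood test over all genes of its table. In +/N440K against +/+, 16 of the 172 Slc genes changed, 4 higher and 12 lower. That is 9.3% of them, where 10.1% of all 10910 genes tested changed. In D/N440K against +/+, 23 changed, 8 higher and 15 lower, or 13.4%, beside 12.4% of all genes. Those comparisons share their 2 +/+ libraries, so their values are given side by side. In Tcf7 F/F : Vav1-Cre against Tcf7 +/+, 45 changed, 21 higher and 24 lower, or 26.2%, beside 23.2% of all 12366 genes tested. The shares were near the background in each comparison. Over all genes 4.79% rose and 5.3% fell in +/N440K, 6.1% rose and 6.31% fell in D/N440K, and 12% rose and 11.1% fell in the Tcf7 mutant. For the Slc genes these shares were 2.33% and 6.98%, 4.65% and 8.72%, and 12.2% and 14.0%.

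These counts moved with single libraries and with the test. Leaving out +/+ replicate 1 gave 9 called Slc genes in +/N440K, and leaving out D/N440K replicate 1 gave 15 in D/N440K. Leaving out Tcf7 +/+ replicate 1 gave 76 in the Tcf7 mutant, where 35.4% of all genes were then called, and leaving out Tcf7 F/F : Vav1-Cre replicate 3 gave 29. Of the 16, 23 and 45 genes called, 8, 11 and 22 were called in every fit that left out 1 library. Slc7a11 is not counted in the first, since it fell under the filter on low counts in 1 of those fits. DESeq2 called 5, 8 and 30 of them. In +/N440K these were Slc16a5, Slc1a5, Slc25a23, Slc27a1 and Slc43a2. In D/N440K they were Slc12a7, Slc16a3, Slc16a5, Slc1a5, Slc25a23, Slc25a24, Slc43a2 and Slc7a8. Every other edgeR call on the 172 Slc genes in the Bcl11b mutants did not pass in DESeq2. For genes outside the 172, given further below, DESeq2 values are not reported here. In the Tcf7 mutant DESeq2 kept all 22 that stayed called without any 1 library. The median log2 change of the 172 genes was -0.027, -0.036 and 0.048 in these comparisons, and that of all genes 0.002, 0.001 and -0.01. In bulk RNA, fewer cells of a type and less RNA per cell cannot be told apart.

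**Figure D2:**
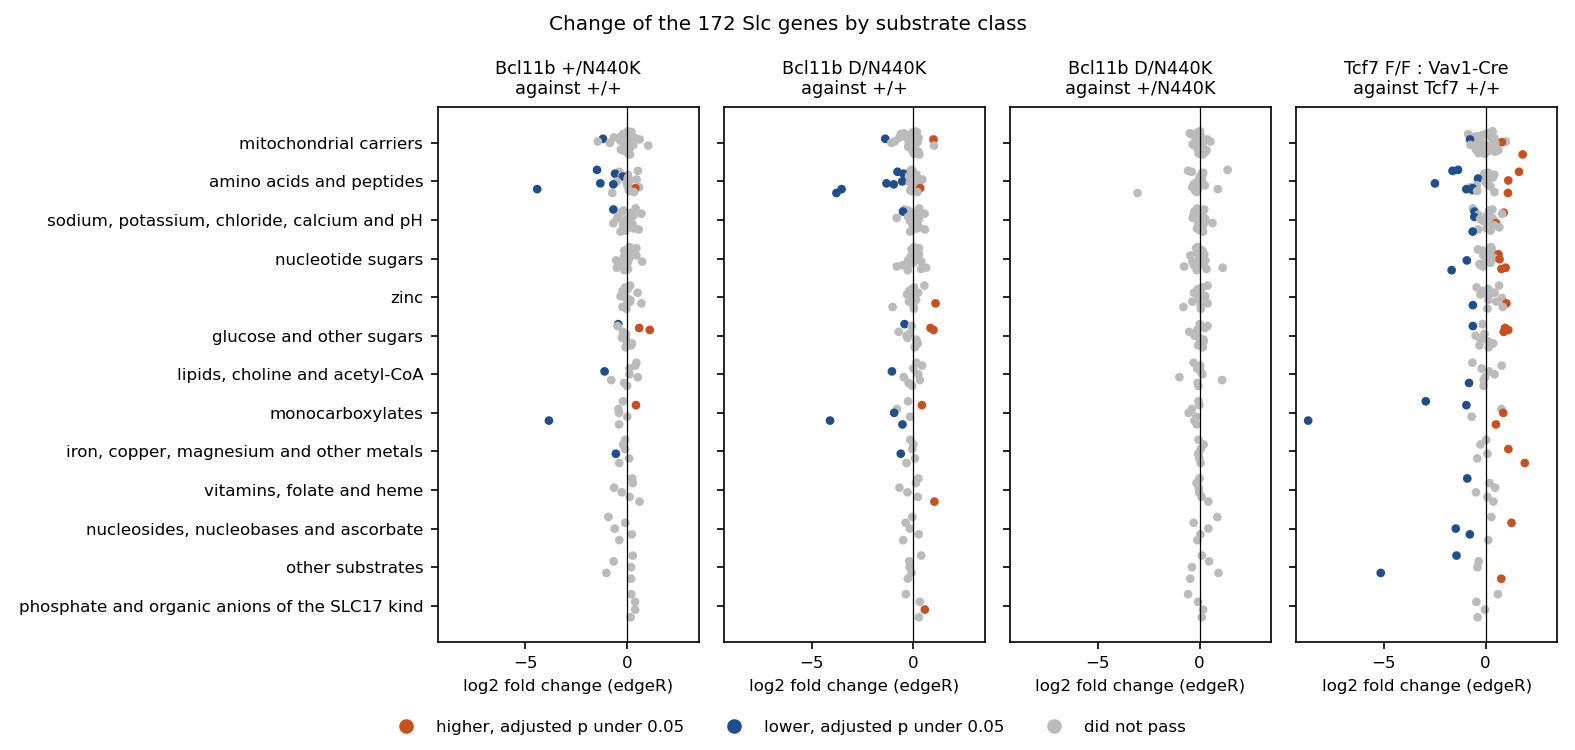
Log2 fold change (edgeR) of each of the 172 Slc genes, in rows by substrate class, in the 4 comparisons of groups; orange points rose and blue points fell at adjusted p under 0.05, and grey points did not pass. In D/N440K against +/N440K no point is coloured; the point farthest left in the Tcf7 panel is Slc16a5, which had no counts in the mutant, so that its place depends on the fitting.

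The classes hold 4 to 35 genes, placed by family number, so that their counts differ by size alone, and they are read beside the 10.1%, 12.4% and 23.2% of all genes called in the 3 comparisons. Among 25 genes of the class of amino acids and peptides, 1 rose and 6 fell in +/N440K, 1 rose and 7 fell in D/N440K, and 3 rose and 7 fell in Tcf7 F/F : Vav1-Cre. Among 7 monocarboxylate carriers the counts were 1 higher and 1 lower, 1 higher and 3 lower, and 2 higher and 3 lower. Among 13 carriers of glucose and other sugars they were 2 higher and 1 lower in both Bcl11b mutants, and 3 higher and 1 lower in the Tcf7 mutant. None of 20 genes of the class of nucleotide sugars, the SLC35 family, changed in either Bcl11b mutant, and 6 did in the Tcf7 mutant, 4 higher and 2 lower. Of 14 zinc carriers none changed in +/N440K, 1 rose in D/N440K, and 1 rose and 1 fell in the Tcf7 mutant.

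Of 7 genes of the monocarboxylate family, SLC16, whose best known members move lactate and pyruvate, 2 were called in +/N440K, 4 in D/N440K and 5 in the Tcf7 mutant. Among all genes 10.1%, 12.4% and 23.2% were called. Slc16a5 (MCT6; ENSMUSG00000045775, GRCm38 chromosome 11, 115462474 to 115474398, plus strand) fell with each mutation. In both tables it passed the filter on low counts through the control libraries alone. Its direction is therefore fixed by the filter, and its values are a description. Slc16a5 stood at 40.9 and 27.4 CPM in the +/+ pair, 2.45 and 1.97 in the +/N440K pair, and 0 and 4.07 in the D/N440K pair. The mutant libraries all lay below both +/+ libraries, and the changes were log2 -3.85 ± 0.52 (edgeR adjusted p = 4.61e-07) in +/N440K and -4.09 ± 0.55 (edgeR adjusted p = 2.51e-07) in D/N440K. In the Tcf7 table Slc16a5 stood at 22.5 and 40.0 CPM in the Tcf7 +/+ pair, against 0, 0 and 0 in the 3 mutant libraries. With 0 counts in the 3 mutant libraries against 111 in the controls, it was at least 50.1-fold lower, taking a floor of 3 counts over the group (edgeR adjusted p = 9.09e-07). Bounds and intervals of this kind cover counting error only, since PCR reads without molecular identifiers are not independent molecules. Slc16a5 overlaps Gm11695 on the other strand, and the strand of counting is not given in the sources used here. D/N440K replicate 1 was listed at 0 for Slc16a5, and without it the change was log2 -3.01, edgeR adjusted p = 6.46e-05.

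Slc16a1 (MCT1; ENSMUSG00000032902, GRCm38 chromosome 3, 104638668 to 104658462, plus strand), the main lactate and pyruvate carrier of many dividing cells, fell in the Tcf7 mutant. It stood at 53.5 and 74.4 CPM in the Tcf7 +/+ pair, against 5.66, 7.91 and 10.6 in the 3 mutant libraries, with no overlap and a gap several times the spread within groups. The log2 change was -2.94 ± 0.27 (edgeR adjusted p = 4.7e-07). In the Bcl11b table it stood at 95.1 and 93.8 CPM in the +/+ pair, 87.3 and 75.0 in the +/N440K pair, and 73.7 and 84.5 in the D/N440K pair, with log2 changes of -0.21 ± 0.15 (edgeR adjusted p = 0.5) and -0.26 ± 0.15 (edgeR adjusted p = 0.334) that did not pass.

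Slc16a3 (MCT4), which exports lactate, moved in opposite directions. It stood at 135 and 147 CPM in the +/+ pair, 86.5 and 130.3 in the +/N440K pair, and 79.7 and 66.2 in the D/N440K pair, so that D/N440K lay lowest, and its change there was log2 -0.95 ± 0.16 (edgeR adjusted p = 2.43e-05). In +/N440K it was -0.41 ± 0.15 (edgeR adjusted p = 0.0726), where 1 library lay close to +/+. At day 7 it stood at 33.8 and 23.1 CPM in the Tcf7 +/+ pair, against 50.1, 52.0 and 52.9 in the 3 mutant libraries, all mutant libraries above both controls, with a log2 change of 0.86 ± 0.22 (edgeR adjusted p = 0.00889), not called without Tcf7 +/+ replicate 2 (log2 0.61, edgeR adjusted p = 0.0696).

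Slc16a10, a carrier of aromatic amino acids in the same family, rose with N440K and fell in the Tcf7 mutant. It stood at 145 and 147 CPM in the +/+ pair, 197 and 196 in the +/N440K pair, and 198 and 192 in the D/N440K pair, and the changes were log2 0.43 ± 0.11 (edgeR adjusted p = 0.00936) and 0.42 ± 0.12 (edgeR adjusted p = 0.00973). Without +/+ replicate 1 these were log2 0.42, edgeR adjusted p = 0.0701, and log2 0.41, edgeR adjusted p = 0.0728. Without +/+ replicate 2 they were log2 0.43, edgeR adjusted p = 0.0807, and log2 0.43, edgeR adjusted p = 0.073, and the second also failed without D/N440K replicate 1 (log2 0.40, edgeR adjusted p = 0.105). Among the Tcf7 libraries Slc16a10 stood at 126 and 127 CPM in the Tcf7 +/+ pair, against 65.5, 54.8 and 76.8 in the 3 mutant libraries, each mutant library near 0.5 times the controls, at log2 -0.95 ± 0.17 (edgeR adjusted p = 0.000489). Slc16a6 (MCT7) fell in D/N440K, at log2 -0.54 ± 0.16 (edgeR adjusted p = 0.0191), and rose in the Tcf7 mutant, at 0.50 ± 0.15 (edgeR adjusted p = 0.0218). The first call was lost without +/+ replicate 2 (log2 -0.46, edgeR adjusted p = 0.186) or D/N440K replicate 2 (log2 -0.35, edgeR adjusted p = 0.326), and the second without any of the Tcf7 F/F : Vav1-Cre libraries (edgeR adjusted p up to 0.0926). Slc16a6 overlaps Amz2 and Arsg on the other strand. Bsg, the partner that brings MCT1 and MCT4 to the surface, had log2 changes of 0.093, 0.048 and 0.053 in the 3 comparisons, none of which passed. Emb, another partner of the family, fell in both Bcl11b mutants, at log2 -0.44 (edgeR adjusted p = 0.0318) and -0.61 (edgeR adjusted p = 0.002).

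**Figure D3:**
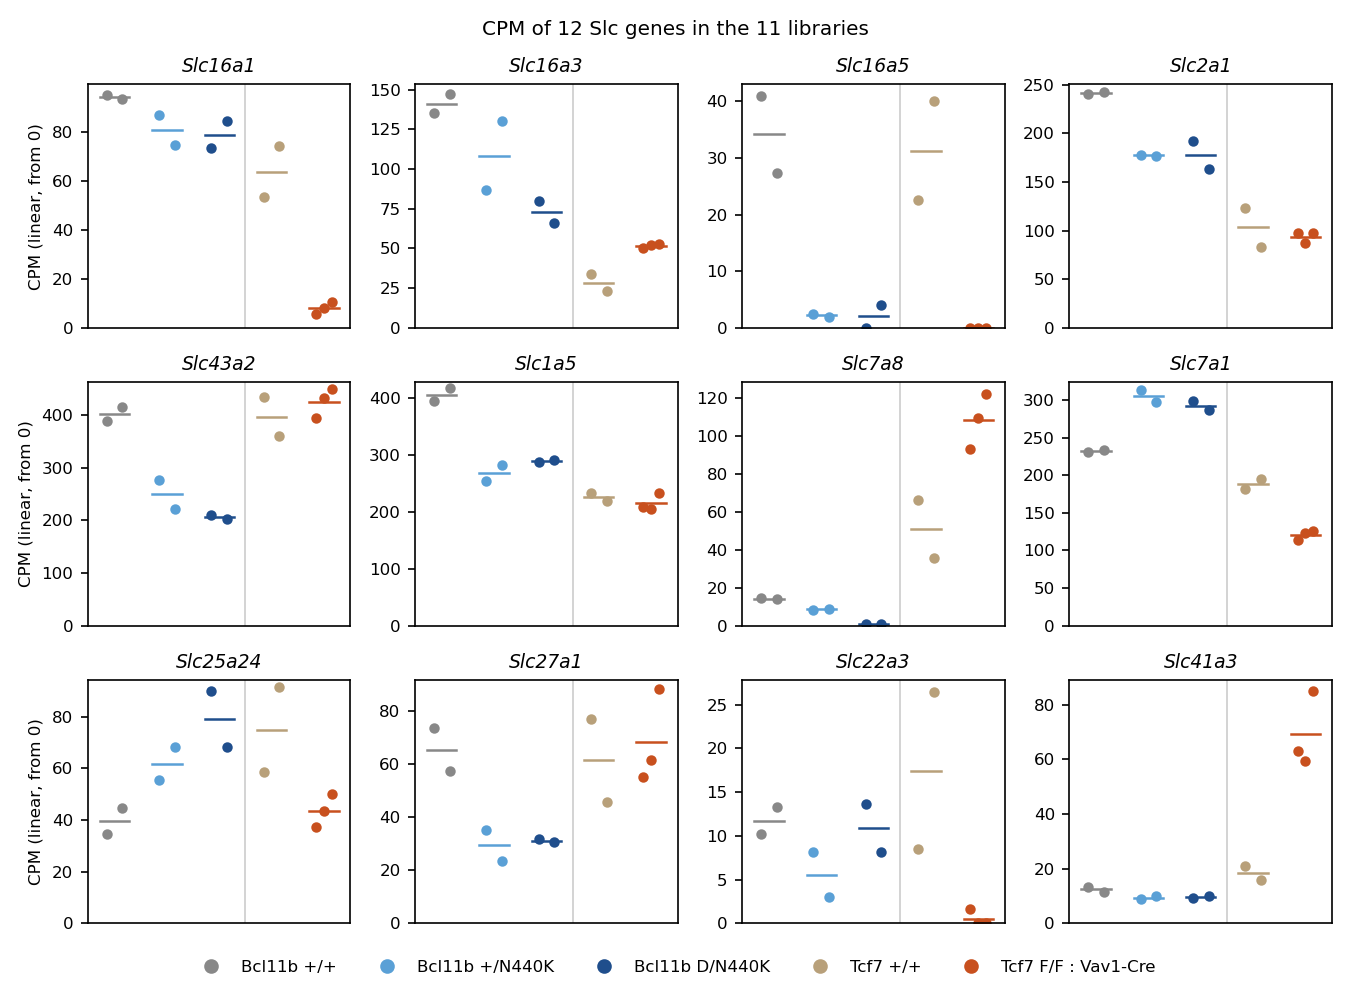
CPM (linear axes from 0) of 12 Slc genes in the 11 libraries, with a point per library and a bar at each group mean; the vertical line separates the Bcl11b table (left, grey to dark blue) from the Tcf7 table (right, tan and orange). Slc16a5 is near or at 0 in all mutant groups, Slc16a1 and Slc22a3 lie below their controls in the Tcf7 mutant, and Slc7a8 is lowest of its table in D/N440K and highest of its table in the Tcf7 mutant.

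Among glucose carriers, Slc2a1 fell in both Bcl11b mutants. It stood at 240.4 and 242 CPM in the +/+ pair, 178 and 177 in the +/N440K pair, and 192 and 164 in the D/N440K pair, so that every mutant library lay below both +/+ libraries. The changes were log2 -0.45 ± 0.11 (edgeR adjusted p = 0.00383) and -0.43 ± 0.11 (edgeR adjusted p = 0.00418), and the second call was lost without D/N440K replicate 2 (log2 -0.33, edgeR adjusted p = 0.136). In the Tcf7 mutant Slc2a1 did not pass, at log2 -0.14 ± 0.18 (edgeR adjusted p = 0.611). Slc2a3 (GLUT3), a glucose carrier of high affinity, fell there, standing at 65.9 and 76.1 CPM in the Tcf7 +/+ pair, against 41.2, 41.8 and 54.0 in the 3 mutant libraries, at log2 -0.63 ± 0.20 (edgeR adjusted p = 0.028). That call was lost without Tcf7 +/+ replicate 2 or Tcf7 F/F : Vav1-Cre replicate 1 or 2 (edgeR adjusted p up to 0.133).

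The hexose carriers Slc2a6 (GLUT6) and Slc2a8 (GLUT8), which lie largely on inner membranes, rose with each mutation by edgeR. Of these calls DESeq2 kept only that of Slc2a6 in the Tcf7 mutant (DESeq2 adjusted p = 0.00292). For Slc2a8, Tcf7 +/+ replicate 2 lay just under the filter on low counts. In that table the gene passed through the mutant libraries, so its rise there is a description. Slc2a8 stood at 19.4 and 19.9 CPM in the +/+ pair, 42.4 and 42.4 in the +/N440K pair, and 38.5 and 39.7 in the D/N440K pair, where all mutant libraries were about 2 times the controls. Its changes were log2 1.10 ± 0.26 (edgeR adjusted p = 0.00232) and 0.98 ± 0.26 (edgeR adjusted p = 0.00733), the second lost without +/+ replicate 2 (log2 1.003, edgeR adjusted p = 0.0552). In the Tcf7 mutant it was 1.11 ± 0.36 (edgeR adjusted p = 0.0336), lost without Tcf7 +/+ replicate 2 (log2 0.73, edgeR adjusted p = 0.216) or without Tcf7 F/F : Vav1-Cre replicate 2 or 3. Slc2a6 stood at 38.9 and 42.3 CPM in the +/+ pair, 57.9 and 65.1 in the +/N440K pair, and 68.5 and 78.4 in the D/N440K pair, in order of group without overlap, at log2 0.59 ± 0.20 (edgeR adjusted p = 0.0486) and 0.84 ± 0.19 (edgeR adjusted p = 0.0014). The +/N440K call was lost when any 1 library of its groups was left out (edgeR adjusted p up to 0.233). In the other table Slc2a6 stood at 56.4 and 35.0 CPM in the Tcf7 +/+ pair, against 80.1, 84.8 and 99.0 in the 3 mutant libraries, at log2 0.95 ± 0.21 (edgeR adjusted p = 0.00326), and this call stayed without any 1 library. Slc2a9, which carries urate, rose in the Tcf7 mutant, at log2 0.89 ± 0.28 (edgeR adjusted p = 0.0316), a call lost without Tcf7 +/+ replicate 2 or Tcf7 F/F : Vav1-Cre replicate 2 or 3 (edgeR adjusted p up to 0.132).

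The enzymes that use the glucose were read from a list of 15 genes from hexokinase to lactate, of which 13 were tested. In +/N440K 7 fell and none rose. In D/N440K 9 fell and none rose, Pfkl and Pfkp, subunits of phosphofructokinase, at log2 -1.01 (edgeR adjusted p = 7.21e-08) and -0.90 (edgeR adjusted p = 6.51e-09). In the Tcf7 mutant 4 fell and none rose, among them Ldhb, a lactate dehydrogenase subunit, at -1.63 (edgeR adjusted p = 0.000562), and Pfkp at -0.59 (edgeR adjusted p = 0.00242). The median log2 change of the 13 was -0.321, -0.46 and -0.134. Beside these counts, 10.1%, 12.4% and 23.2% of all genes were called, and 5.3%, 6.31% and 11.1% were called lower.

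Of the carriers of neutral amino acids, Slc43a2, Slc1a5 and Slc43a1 fell in both Bcl11b mutants, while Slc7a5 and Slc7a6 did not pass there. Slc43a2 (LAT4; ENSMUSG00000038178, GRCm38 chromosome 11, 75531694 to 75577575, plus strand), which moves large neutral amino acids without a partner chain, stood at 389.8 and 416 CPM in the +/+ pair, 277 and 222 in the +/N440K pair, and 209.8 and 202 in the D/N440K pair. The groups did not overlap. Its changes were log2 -0.68 ± 0.097 (edgeR adjusted p = 1.43e-06) and -0.97 ± 0.10 (edgeR adjusted p = 1.31e-09), and in the Tcf7 mutant 0.10 ± 0.13 (edgeR adjusted p = 0.614). Slc1a5, the glutamine carrier, stood at 394 and 417 CPM in the +/+ pair, 254 and 282 in the +/N440K pair, and 287 and 291 in the D/N440K pair, with both mutants below +/+ and overlapping in range with neither control library. The changes were log2 -0.60 ± 0.091 (edgeR adjusted p = 4.34e-06) and -0.49 ± 0.090 (edgeR adjusted p = 8.74e-05), and -0.068 ± 0.13 (edgeR adjusted p = 0.754) in the Tcf7 mutant. Slc43a1 (LAT3), a relative of Slc43a2, fell in all 3 comparisons, at log2 -1.32 ± 0.40 (edgeR adjusted p = 0.0239), -1.32 ± 0.40 (edgeR adjusted p = 0.0209) and -2.49 ± 0.49 (edgeR adjusted p = 0.00112). Its level was low, at 29.7 and 22.4 CPM in the +/+ pair, 16.3 and 2.96 in the +/N440K pair, and 10.3 and 10.2 in the D/N440K pair, and at 13.0 and 11.3 CPM in the Tcf7 +/+ pair, against 3.23, 1.13 and 2.23 in the 3 mutant libraries. In the Tcf7 table Slc43a1 passed the filter on low counts through the controls alone, which fixes its direction there. The +/N440K libraries differed, and the change there was log2 -3.07, edgeR adjusted p = 0.000162 without replicate 1. The call was lost without +/+ replicate 1 or +/N440K replicate 2 (log2 -0.65, edgeR adjusted p = 0.405), and the D/N440K call without +/+ replicate 1 or either D/N440K library (edgeR adjusted p up to 0.145).

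Slc7a11 (xCT), which exchanges cystine for glutamate, fell to 1 and 2 counts in +/N440K and D/N440K. Slc7a8 (LAT2), a large neutral amino acid carrier that pairs with Slc3a2, fell to 2 counts in D/N440K. In the Bcl11b table both genes passed the filter on low counts through the +/+ libraries alone. The direction of those falls is fixed by the filter, and their values are a description. Slc7a11 had 26 counts in the +/+ libraries, 1 in +/N440K and 2 in D/N440K, so that its fitted changes rest on few reads. The ratio of +/+ to +/N440K was 26.7 (exact 95% interval 4.38 to 1090; edgeR adjusted p = 0.000385), and the fitted change was log2 -3.44, edgeR adjusted p = 0.042 without +/N440K replicate 1, which leaves the library with that 1 count. The ratio to D/N440K was 12.8 (3.21 to 111; edgeR adjusted p = 0.00108), a call lost without D/N440K replicate 1 (log2 -3.41, edgeR adjusted p = 0.0567). Slc7a11 overlaps several unnamed gene models, and its fall in the Tcf7 mutant, at log2 -0.95 ± 0.29 (edgeR adjusted p = 0.0256), was lost without Tcf7 F/F : Vav1-Cre replicate 2 or 3 (edgeR adjusted p up to 0.133).

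Slc7a8 (ENSMUSG00000022180, GRCm38 chromosome 14, 54722209 to 54781946, minus strand) stood at 14.3 and 14.1 CPM in the +/+ pair, 8.16 and 8.88 in the +/N440K pair, and 0.856 and 1.02 in the D/N440K pair. It had 31 counts in +/+ and 2 in D/N440K, a ratio of 15.3 (exact 95% interval 3.89 to 132; edgeR adjusted p = 0.000114). In +/N440K it did not pass, at log2 -0.74 ± 0.44 (edgeR adjusted p = 0.361). In the Tcf7 table it stood at 66.5 and 35.5 CPM in the Tcf7 +/+ pair, against 93.0, 109.6 and 122 in the 3 mutant libraries, higher in every mutant library, at log2 1.09 ± 0.22 (edgeR adjusted p = 0.00163).

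Slc7a1 (CAT1), which takes up arginine and lysine, rose in both Bcl11b mutants and fell in the Tcf7 mutant. It stood at 231 and 233 CPM in the +/+ pair, 313 and 297 in the +/N440K pair, and 298 and 287 in the D/N440K pair, at log2 0.40 ± 0.096 (edgeR adjusted p = 0.0038) and 0.33 ± 0.097 (edgeR adjusted p = 0.0156). The second call was lost without any 1 of the +/+ and D/N440K libraries (edgeR adjusted p up to 0.163). At day 7 it stood at 181 and 194 CPM in the Tcf7 +/+ pair, against 113, 123 and 125 in the 3 mutant libraries, without overlap, at log2 -0.64 ± 0.14 (edgeR adjusted p = 0.00246). Slc7a5 fell in the Tcf7 mutant, standing at 258 and 213 CPM in the Tcf7 +/+ pair, against 130.2, 141 and 179 in the 3 mutant libraries, at log2 -0.64 ± 0.15 (edgeR adjusted p = 0.00554), a call lost without Tcf7 F/F : Vav1-Cre replicate 1 (log2 -0.55, edgeR adjusted p = 0.0518). In the Bcl11b mutants it was at 0.074 ± 0.093 (edgeR adjusted p = 0.753) and -0.16 ± 0.097 (edgeR adjusted p = 0.372). Slc3a2, the heavy chain that LAT1 and xCT need at the surface, did not pass in any comparison, with log2 changes of -0.033, -0.18 and 0.045, nor did Slc7a6, another light chain, at 0.11, -0.077 and -0.42.

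Of the SLC38 carriers of small neutral amino acids, Slc38a1 lay just inside the threshold in +/N440K, at log2 -0.22 ± 0.074 (edgeR adjusted p = 0.0497), and just outside it in D/N440K, at -0.21 ± 0.074 (edgeR adjusted p = 0.0504). The +/N440K call was lost without any 1 library of its groups (edgeR adjusted p up to 0.278). Slc38a9, a lysosomal carrier that senses arginine for mTORC1, fell in D/N440K at log2 -0.55 ± 0.17 (edgeR adjusted p = 0.028) and stood at -0.51 ± 0.17 (edgeR adjusted p = 0.0505) in +/N440K, just outside. Its call was lost without +/+ replicate 1 (log2 -0.35, edgeR adjusted p = 0.405) or D/N440K replicate 1 (log2 -0.40, edgeR adjusted p = 0.334). In the Tcf7 mutant the lysosomal glutamine carrier Slc38a7 rose at log2 1.11 ± 0.24 (edgeR adjusted p = 0.00248), and Slc38a2 fell at -0.38 ± 0.13 (edgeR adjusted p = 0.0425), the latter lost without any 1 library other than Tcf7 +/+ replicate 1 (edgeR adjusted p up to 0.203).

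Of the peptide carriers of the SLC15 family, Slc15a3 was the one whose changes in D/N440K and in the Tcf7 mutant were called different. Slc15a3, an endolysosomal peptide and histidine carrier found in phagocytes, stood at 48.1 and 33.2 CPM in the +/+ pair, 26.9 and 34.5 in the +/N440K pair, and 25.7 and 20.4 in the D/N440K pair, and fell in D/N440K at log2 -0.78 ± 0.27 (edgeR adjusted p = 0.0468). This call was lost without +/+ replicate 1 (log2 -0.51, edgeR adjusted p = 0.438) or either D/N440K library. Among the Tcf7 libraries Slc15a3 stood at 96.4 and 46.8 CPM in the Tcf7 +/+ pair, against 219, 203 and 245 in the 3 mutant libraries, with every mutant library above both controls, at log2 1.64 ± 0.22 (edgeR adjusted p = 2.71e-05), and at log2 2.25, edgeR adjusted p = 9.51e-16 without Tcf7 +/+ replicate 1. Myeloid genes moved with it: their sum was higher in that mutant. Of 7 tested, 4 were called higher and none lower, beside 12% and 11.1% of all genes. In the Bcl11b table the myeloid sum was higher in D/N440K, where Slc15a3 was lower. The part of myeloid cells in the Slc15a3 values was not tested. Slc15a1 (PEPT1) fell in +/N440K at log2 -1.49 ± 0.46 (edgeR adjusted p = 0.0295) and in the Tcf7 mutant at -1.36 ± 0.42 (edgeR adjusted p = 0.0264), with D/N440K at -0.11 ± 0.37 (edgeR adjusted p = 0.925). In the Tcf7 table it passed the filter on low counts through the controls, so its fall there is a description. The +/N440K call was lost without either +/+ library or +/N440K replicate 1 (log2 -1.05, edgeR adjusted p = 0.289), and the Tcf7 call without Tcf7 +/+ replicate 2 (log2 -0.90, edgeR adjusted p = 0.204) or Tcf7 F/F : Vav1-Cre replicate 2 or 3. Slc15a2 (PEPT2), listed at 0 in Tcf7 F/F : Vav1-Cre replicate 3, was called lower at log2 -1.63 ± 0.55 (edgeR adjusted p = 0.0392). Without that library it was log2 -0.98, edgeR adjusted p = 0.0554, and without replicate 1 of that group its edgeR adjusted p was 0.0869.

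Of 22 tested genes of amino acid sensing and mTORC1, which read amino acid supply, 1 rose and 1 fell in +/N440K, none rose and 2 fell in D/N440K, and 1 rose and 1 fell in the Tcf7 mutant. Over all genes 10.1%, 12.4% and 23.2% were called. Castor2 fell in the Bcl11b mutants at log2 -1.002 (edgeR adjusted p = 0.0486) and -1.21 (edgeR adjusted p = 0.0145), and Sesn1, of the sestrin family, in D/N440K at -0.87 (edgeR adjusted p = 0.000124). Of genes induced by amino acid shortage, 14 were tested in the Tcf7 table, where 3 rose and 4 fell, beside 23.2% of all genes called. The 4 that fell encode enzymes of serine and one-carbon metabolism: Phgdh at log2 -1.53 (edgeR adjusted p = 0.00172), Mthfd2 at -1.49 (edgeR adjusted p = 0.000489), Psat1 at -1.21 and Shmt2 at -0.46. Those that rose were Nupr1, Sesn2 and Ddit4. Of 12 tested in the Bcl11b libraries, 1 was higher in +/N440K and 1 lower in D/N440K.

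Of 35 mitochondrial carriers 1, 2 and 3 were called in +/N440K, D/N440K and the Tcf7 mutant, beside 10.1%, 12.4% and 23.2% of all genes. Slc25a5, Slc25a37 (mitoferrin 1, which brings iron into mitochondria) and Slc25a38, a glycine carrier needed for heme synthesis, did not pass in any of the 4 comparisons of groups, with log2 changes between -0.35 and 0.19. Slc25a23 and Slc25a24, calcium-regulated carriers of ATP-magnesium and phosphate, went opposite ways. Slc25a23 stood at 66.5 and 64.8 CPM in the +/+ pair, 26.9 and 30.6 in the +/N440K pair, and 27.4 and 22.4 in the D/N440K pair, where the mutants lay under 0.5 times the controls, at log2 -1.19 ± 0.21 (edgeR adjusted p = 8.82e-05) and -1.38 ± 0.22 (edgeR adjusted p = 1.17e-05), beside -0.55 ± 0.28 (edgeR adjusted p = 0.169) in the Tcf7 mutant. Slc25a24 stood at 34.8 and 44.8 CPM in the +/+ pair, 55.5 and 68.1 in the +/N440K pair, and 89.9 and 68.2 in the D/N440K pair, rising without overlap in D/N440K at log2 0.98 ± 0.20 (edgeR adjusted p = 0.000299), with 0.60 ± 0.21 (edgeR adjusted p = 0.0551) in +/N440K. In the Tcf7 mutant Slc25a24 fell at log2 -0.77 ± 0.22 (edgeR adjusted p = 0.0163), lost without Tcf7 +/+ replicate 2 (log2 -0.41, edgeR adjusted p = 0.229) or Tcf7 F/F : Vav1-Cre replicate 1 or 2. Slc25a53, an orphan carrier, rose there, standing at 34.4 and 22.6 CPM in the Tcf7 +/+ pair, against 103, 97.8 and 101 in the 3 mutant libraries, at log2 1.82 ± 0.21 (edgeR adjusted p = 5.3e-06); it overlaps Zcchc18 on the other strand. Slc25a28 (mitoferrin 2) rose there at log2 0.79 ± 0.18 (edgeR adjusted p = 0.00439).

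Slc27a1 (FATP1), a fatty acid transport protein, fell in both Bcl11b mutants. It stood at 73.7 and 57.3 CPM in the +/+ pair, 35.1 and 23.7 in the +/N440K pair, and 31.7 and 30.5 in the D/N440K pair, with every mutant library below both +/+ libraries, at log2 -1.11 ± 0.22 (edgeR adjusted p = 0.000375) and -1.05 ± 0.22 (edgeR adjusted p = 0.000585), and did not pass in the Tcf7 mutant, at 0.17 ± 0.24 (edgeR adjusted p = 0.67). Slc44a1, a choline carrier, fell in the Tcf7 mutant at log2 -0.82 ± 0.18 (edgeR adjusted p = 0.00372). Slc52a3, a riboflavin carrier, rose in D/N440K, standing at 22.5 and 24.9 CPM in the +/+ pair, 40.8 and 30.6 in the +/N440K pair, and 53.1 and 43.8 in the D/N440K pair, at log2 1.03 ± 0.25 (edgeR adjusted p = 0.0025), lost without D/N440K replicate 1 (log2 0.88, edgeR adjusted p = 0.0764).

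Of 5 carriers of nucleosides, nucleobases and ascorbate, 3 were called in the Tcf7 mutant and none in either Bcl11b mutant. Among all genes 23.2% were called in the Tcf7 mutant, 10.1% in +/N440K and 12.4% in D/N440K. Slc23a2 (SVCT2), which takes up ascorbate, stood at 95.2 and 91.3 CPM in the Tcf7 +/+ pair, against 225, 228 and 221 in the 3 mutant libraries, more than 2 times the controls, at log2 1.27 ± 0.14 (edgeR adjusted p = 3.48e-06), beside -0.38 in D/N440K. The nucleoside carriers Slc28a2 and Slc29a1 (ENT1) fell at log2 -1.47 ± 0.24 (edgeR adjusted p = 0.000263) and -0.78 ± 0.19 (edgeR adjusted p = 0.00596), beside -0.18 and 0.26 in D/N440K. Slc19a1, the reduced folate carrier, stood at 37.2 and 38.3 CPM in the Tcf7 +/+ pair, against 19.4, 19.8 and 21.1 in the 3 mutant libraries, with no overlap, at log2 -0.90 ± 0.23 (edgeR adjusted p = 0.00787). It overlaps Col18a1 on the other strand. Slc14a1 (ENSMUSG00000059336), a urea carrier, stood at 105 and 95.3 CPM in the Tcf7 +/+ pair, against 35.6, 28.8 and 46.7 in the 3 mutant libraries, at log2 -1.43 ± 0.20 (edgeR adjusted p = 6.35e-05). Slc22a3 (OCT3), an organic cation carrier, had 62 counts in Tcf7 +/+ and 2 in the mutant, a ratio of 42.0 (exact 95% interval 11.1 to 354; edgeR adjusted p = 0.000158). In that table it passed the filter on low counts through the controls alone, so its direction is fixed by the filter. Its control libraries differed, at 8.45 and 26.5 CPM in the Tcf7 +/+ pair, against 1.62, 0 and 0 in the 3 mutant libraries, and the fitted change moved with each library left out, from log2 -4.10, edgeR adjusted p = 0.00286, without Tcf7 +/+ replicate 2, to log2 -5.75, edgeR adjusted p = 8.28e-10, without replicate 1. Without Tcf7 F/F : Vav1-Cre replicate 2 or 3 it was -4.56 and -4.55, and without replicate 1 the other two mutant libraries held no count, which gives no fold. Slc22a5, a carnitine carrier, lay just inside the threshold at 0.76 ± 0.27 (edgeR adjusted p = 0.0459), lost without Tcf7 +/+ replicate 2 or Tcf7 F/F : Vav1-Cre replicate 1 or 3 (edgeR adjusted p up to 0.17).

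Among ion carriers, Slc12a7 (KCC4), a potassium-chloride cotransporter, fell in D/N440K and in the Tcf7 mutant. It stood at 460.4 and 421 CPM in the +/+ pair, 392 and 342 in the +/N440K pair, and 328 and 286 in the D/N440K pair, at log2 -0.26 ± 0.089 (edgeR adjusted p = 0.0614) and -0.51 ± 0.092 (edgeR adjusted p = 6.77e-05), the first not passing. In the other table it stood at 326 and 279 CPM in the Tcf7 +/+ pair, against 237, 191 and 194 in the 3 mutant libraries, at log2 -0.55 ± 0.14 (edgeR adjusted p = 0.00728), lost without Tcf7 F/F : Vav1-Cre replicate 2 or 3 (edgeR adjusted p up to 0.0688). Slc12a4 (KCC1) fell in +/N440K at log2 -0.68 ± 0.23 (edgeR adjusted p = 0.0469), lost without any 1 library of its groups (edgeR adjusted p up to 0.223). Slc12a9 rose in the Tcf7 mutant at log2 0.89 ± 0.18 (edgeR adjusted p = 0.0015), and Slc9a9, an endosomal sodium-proton exchanger, fell at -0.64 ± 0.15 (edgeR adjusted p = 0.00503). Of carriers that set cell volume and pH, Slc12a2 (NKCC1) and Slc4a7 did not pass in any comparison; Slc12a2 stood at log2 0.41, 0.29 and -0.63 in +/N440K, D/N440K and the Tcf7 mutant. The calls on Slc8a1, a sodium-calcium exchanger, at 0.51, and Slc26a2, a sulfate carrier, at -0.56, were lost without any 1 library other than Tcf7 +/+ replicate 1 (edgeR adjusted p up to 0.228 and 0.366). Beside the carriers, 21 pump and channel genes were tested: none rose and 2 fell in +/N440K, 2 rose and 2 fell in D/N440K, and 3 rose and 4 fell in the Tcf7 mutant. The shares called over all genes were 10.1%, 12.4% and 23.2%. The potassium channel Kcnn4 fell at log2 -0.90 (edgeR adjusted p = 4.32e-06) in D/N440K and -1.77 (edgeR adjusted p = 1.04e-05) in the Tcf7 mutant, and Kcna3 was -0.92 (edgeR adjusted p = 1.6e-05) and 1.27 (edgeR adjusted p = 9e-06).

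Metal carriers gave a few changes. Slc41a1, a magnesium carrier, fell in both Bcl11b mutants at log2 -0.56 ± 0.19 (edgeR adjusted p = 0.0468) and -0.62 ± 0.19 (edgeR adjusted p = 0.0222). The first call was lost without either +/+ library or +/N440K replicate 2, and the second without +/+ replicate 1 or D/N440K replicate 2 (edgeR adjusted p up to 0.262 and 0.335). Its relative Slc41a3 (ENSMUSG00000030089, GRCm38 chromosome 6, 90604725 to 90646412, plus strand) rose in the Tcf7 mutant, standing at 20.9 and 15.8 CPM in the Tcf7 +/+ pair, against 63.1, 59.3 and 85.1 in the 3 mutant libraries, each more than 3 times the mean of the controls, at log2 1.92 ± 0.25 (edgeR adjusted p = 1.95e-05). The zinc importer Slc39a4 (ZIP4) rose in D/N440K, where it stood at 24.6 and 21.6 CPM in the +/+ pair, 31.8 and 43.4 in the +/N440K pair, and 48.8 and 48.9 in the D/N440K pair, at log2 1.09 ± 0.25 (edgeR adjusted p = 0.00144), and in the Tcf7 mutant at 1.02 ± 0.27 (edgeR adjusted p = 0.0117), lost without Tcf7 F/F : Vav1-Cre replicate 2 (log2 0.78, edgeR adjusted p = 0.093). Slc39a6 (ZIP6) fell in the Tcf7 mutant at log2 -0.63 ± 0.19 (edgeR adjusted p = 0.0221), lost without any 1 library other than Tcf7 +/+ replicate 1 (edgeR adjusted p up to 0.0903). Slc31a2, a copper carrier, rose there at 1.11 ± 0.28 (edgeR adjusted p = 0.00727), lost without Tcf7 F/F : Vav1-Cre replicate 3 (log2 1.01, edgeR adjusted p = 0.0569). Slc20a1, a phosphate importer, rose in D/N440K at log2 0.56 ± 0.14 (edgeR adjusted p = 0.00482), lost without D/N440K replicate 1 (log2 0.40, edgeR adjusted p = 0.215). Slc11a2 (DMT1), an iron importer, did not pass, with log2 changes of -0.10, -0.16 and 0.027. Tfrc, the transferrin receptor that brings iron to it, fell in each mutant, at log2 -1.06 (edgeR adjusted p = 6.4e-08), -0.83 (edgeR adjusted p = 3.68e-06) and -1.15 (edgeR adjusted p = 7.6e-06). Of the list of zinc and iron genes it was the only one called in the Bcl11b table, of 8 tested, and in the Tcf7 table Ireb2 and Steap3 also fell, of 12. The shares called over all genes were 10.1%, 12.4% and 23.2% in the 3 comparisons.

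Of 20 genes of the SLC35 family, 6 were called in the Tcf7 mutant and 14 were not, beside 23.2% of all genes called. They form the class of nucleotide sugars by family number, and a gene in it need not carry a nucleotide sugar. Slc35d1 fell at log2 -0.93 ± 0.21 (edgeR adjusted p = 0.00341) and stayed called without any 1 library. Slc35g1 fell at -1.67 ± 0.39 (edgeR adjusted p = 0.00435), lost without Tcf7 +/+ replicate 2 (log2 -0.81, edgeR adjusted p = 0.214). Slc35b2, a carrier of the sulfate donor PAPS, with Slc35c2, Slc35f5 and Slc35f6, rose at log2 0.63, 0.68, 0.98 and 0.77 (edgeR adjusted p = 0.0281, 0.0121, 0.0212 and 0.0348). Each of these 4 calls was lost without at least 2 of the 5 libraries in turn. Without Tcf7 +/+ replicate 2 the log2 changes were 0.38 for Slc35b2, 0.41 for Slc35c2 and 0.39 for Slc35f6 (edgeR adjusted p up to 0.241), and without Tcf7 +/+ replicate 1 Slc35f5 was log2 0.79, edgeR adjusted p = 0.0624.

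D/N440K was also set directly against +/N440K. None of the 172 Slc genes was called by edgeR, beside 0.532% of all genes (0.284% higher and 0.247% lower), and 12 had an unadjusted p under 0.05, beside 7.8% of all genes, which is 851 of 10910. DESeq2 called none and limma on the deposited CPM called 1, Slc7a8. The gene nearest the threshold was Slc7a8, at log2 -3.04 ± 0.83 (edgeR adjusted p = 0.0645), with 2 counts in D/N440K against 19 in +/N440K, a ratio of 9.12 (exact 95% interval 2.2 to 80.8). Slc16a3 stood at log2 -0.54 ± 0.17 (edgeR adjusted p = 0.179) and was called without +/N440K replicate 1 (log2 -0.82, edgeR adjusted p = 0.00535). No gene of the 8 pathway lists was called in this comparison.

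The D/N440K and Tcf7 comparisons share no library, so the genes called in each could be set side by side. Of the 23 and 45 called Slc genes, 14 were called in both, which is 60.9% of the first list and 31.1% of the second; over all 10531 genes the shares were 50.0% and 28.1%. Of the 14, 7 moved the same way: Slc16a5, Slc43a1, Slc12a7 and Slc7a11 fell in both, and Slc2a6, Slc2a8 and Slc39a4 rose in both. For Slc16a5 in both tables, Slc7a11 in D/N440K and Slc43a1 in the Tcf7 mutant, the filter on low counts fixed that direction. In the Tcf7 table Slc2a8 passed that filter through the mutant libraries. The other 7 moved oppositely: Slc7a8, Slc16a3, Slc15a3 and Slc16a6 were lower in D/N440K and higher in the Tcf7 mutant, and Slc7a1, Slc16a10 and Slc25a24 the reverse. Over all genes called in both, 404 of 649 moved the same way.

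The difference between the 2 changes was tested for each gene in 1 edgeR model over all 11 libraries. It was called for 21 Slc genes, or 12.2%, beside 11.5% of the 12249 genes tested, with 9 of them higher and 12 lower in the D/N440K change than in the Tcf7 change (5.66% and 5.83% of all genes). For this model the counts of all 11 libraries were normalised together. The tables also differ in age, so that genotype and age cannot be told apart. By adjusted p Slc16a1 came first, with a difference of log2 2.67 ± 0.32 (edgeR adjusted p = 9.97e-07), then Slc23a2 at -1.65 ± 0.20 (edgeR adjusted p = 1.42e-06) and Slc16a10 at 1.36 ± 0.20 (edgeR adjusted p = 2.76e-05). Slc22a3 at 5.01 ± 1.09 (edgeR adjusted p = 0.00147) and Slc7a8 at -4.90 ± 0.77 (edgeR adjusted p = 3.93e-05) had larger differences, each with 2 counts in 1 of the mutants. In that mutant the filter on low counts fixed the direction of each. Slc16a3 differed by -1.81 ± 0.29 (edgeR adjusted p = 8e-05) and Slc15a3 by -2.42 ± 0.40 (edgeR adjusted p = 9.67e-05). For Slc43a2, at -1.07 ± 0.17 (edgeR adjusted p = 5.96e-05), the Tcf7 change was near 0, and for Slc14a1, at 1.81 ± 0.28 (edgeR adjusted p = 6.05e-05), the D/N440K change did not pass. Just inside the threshold lay Slc7a11, at -2.60 ± 0.88 (edgeR adjusted p = 0.0452), and just outside it Slc39a8, a zinc importer, at -1.85 ± 0.62 (edgeR adjusted p = 0.0527), which was called without D/N440K replicate 2 (log2 -2.81, edgeR adjusted p = 0.0238). Of the 21 differences 15 stayed called without any 1 library, and those of Slc12a9, Slc19a1, Slc27a1, Slc2a9, Slc38a2 and Slc7a11 did not. Leaving out Tcf7 +/+ replicate 1 raised the count to 49.

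**Figure D4:**
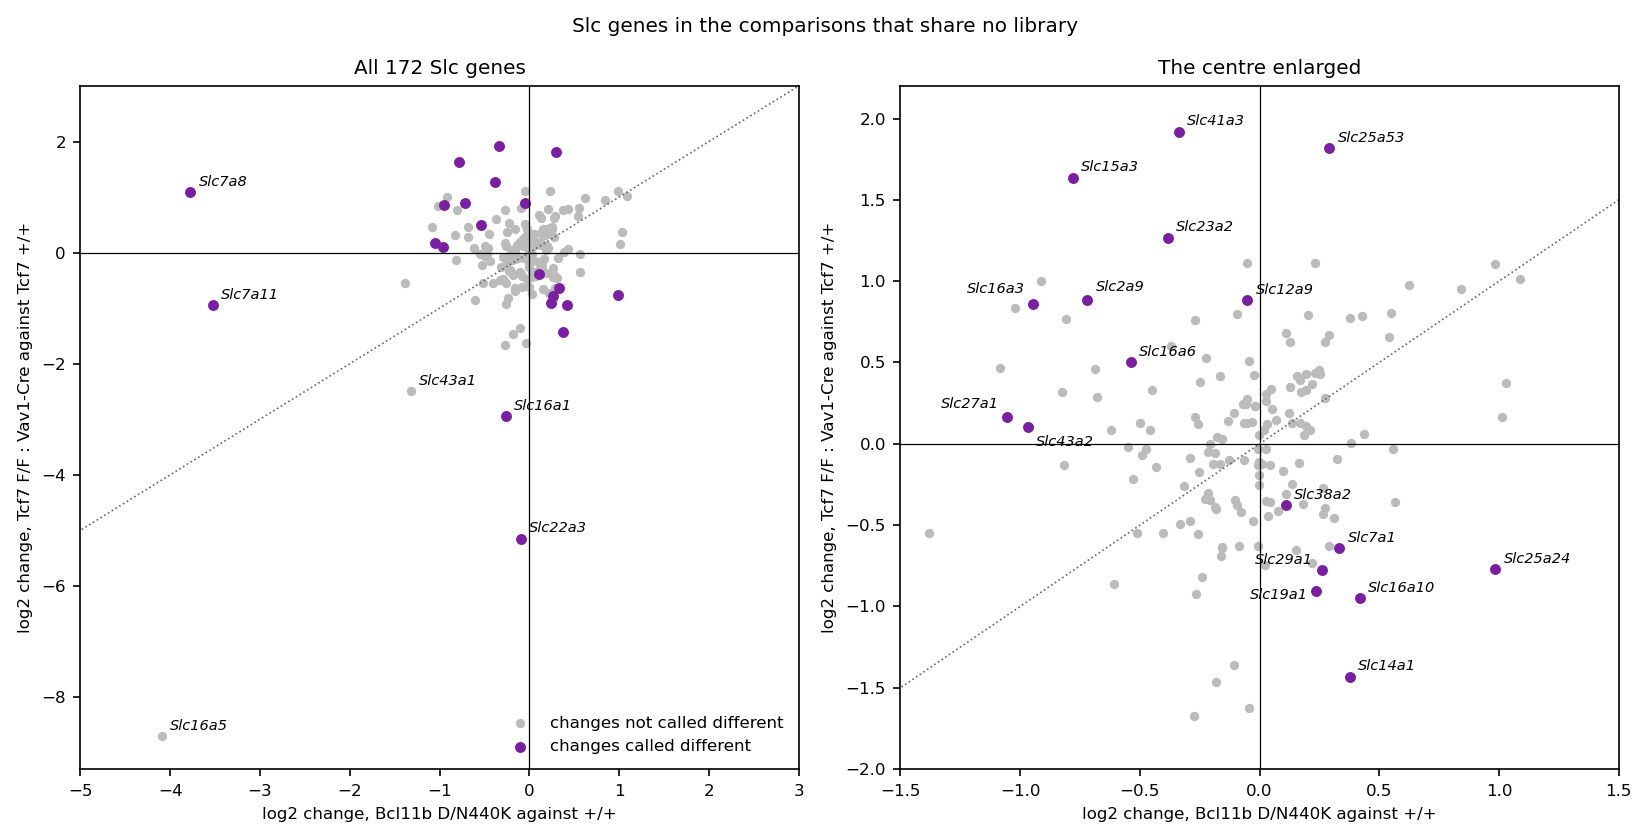
Log2 change of the 172 Slc genes in D/N440K against +/+ (x axis) and in Tcf7 F/F : Vav1-Cre against Tcf7 +/+ (y axis), whole on the left and enlarged on the right; purple genes are the 21 whose changes differ at adjusted p under 0.05, the dotted line marks equal changes, and names are printed for those 21 and for Slc16a5 and Slc43a1. Slc7a8 lies upper left and Slc25a24 and Slc16a10 lower right, where the directions are opposite.

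Slc genes listed in only 1 of the normalised tables are not among the 172. The Tcf7 table alone listed 22, of which 7 were called higher and 1 lower in the mutant, beside 12% and 11.1% of all genes. Of the 7, Slc6a7, Slc7a14, Slc34a3, Slc6a13 and Slc13a3 had at most 5 counts in either control library and passed the filter on low counts through the mutant libraries, so that their direction is fixed by the filter and their values are a description. Slc24a3, with 8 and 11 counts in the control libraries, also passed through the mutant libraries, and its value is likewise a description. The gene that fell was Slc40a1 (ferroportin), the iron exporter, at 144 and 69.3 CPM in the Tcf7 +/+ pair, against 30.7, 5.65 and 5.56 in the 3 mutant libraries, with a log2 change of -3.08 (edgeR adjusted p = 6.42e-05), log2 -2.48, edgeR adjusted p = 2.43e-08 without Tcf7 +/+ replicate 1, and log2 -4.23, edgeR adjusted p = 6.22e-06 without Tcf7 F/F : Vav1-Cre replicate 1. Slc6a7, a proline carrier, had 77 counts against 1, a ratio of 56.9 (exact 95% interval 9.91 to 2280; edgeR adjusted p = 1.75e-05). Slc34a3, a sodium-phosphate cotransporter, had 116 against 3, a ratio of 28.6 (9.53 to 141; edgeR adjusted p = 6.63e-05). Slc7a14 had 35 against 0 and was at least 8.62-fold higher (edgeR adjusted p = 0.000651). Slc11a1 (NRAMP1), a metal carrier of phagocytes, rose at log2 1.08 (edgeR adjusted p = 0.0128), beside the higher myeloid sum, whose part was not tested. Slc13a3, Slc24a3 and Slc6a13 were the other genes called higher. Slc30a4, a zinc exporter, was at -0.68 (edgeR adjusted p = 0.0636). The Bcl11b table alone listed 5. A further 172 protein-coding Slc genes were listed in neither table, and 66 of the 371 had 0 counts in all 11 libraries.

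Of 16 regulators of nutrient uptake tested in the Tcf7 table, 4 rose and 3 fell, beside 12% and 11.1% of all genes. Myc, a driver of growth, fell at log2 -1.80 (edgeR adjusted p = 4.72e-07) and Hif1a, the oxygen-sensing factor, at -0.87 (edgeR adjusted p = 0.00172), while Foxo3 rose at 0.56 (edgeR adjusted p = 0.00588). Of 15 tested in the Bcl11b libraries, the same 3 were called in each mutant, beside 10.1% and 12.4% of all genes. Tfeb, a regulator of lysosomes, rose and Foxo3 and Srebf2 fell, with Foxo3 at -0.72 (edgeR adjusted p = 4.47e-06) and -0.72 (edgeR adjusted p = 4.59e-06). Sgk1, a kinase that keeps carriers and channels at the surface, rose at log2 0.98 (edgeR adjusted p = 1.06e-07) and 0.86 (edgeR adjusted p = 1.45e-06) in the Bcl11b mutants and fell at -1.30 (edgeR adjusted p = 8.22e-05) in the Tcf7 mutant. Of 20 or 21 tested ABC transporters and organic anion carriers, 3 rose and 2 fell in +/N440K, 3 rose and 5 fell in D/N440K, and 5 rose and 3 fell in the Tcf7 mutant. The shares called over all genes were 10.1%, 12.4% and 23.2%. Abca1, which exports cholesterol, rose at log2 1.32 (edgeR adjusted p = 1.01e-06) and 1.23 (edgeR adjusted p = 4.65e-06) and fell at -0.91 (edgeR adjusted p = 0.000905).

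Promoter sequence was read for the Slc genes with an entry in the RefSeq table of GRCm38.p6, 128 of the 172. The 250 bases before each start were searched on both strands for CACGTG, an E-box that the MYC family binds, since Myc fell in the Tcf7 mutant. The letters were found before 21 of the 128 genes, or 16.4%, and before 10.4% of 7926 genes listed in both normalised tables. CTTTGA, a core of TCF/LEF sites, was found before 15.6% and 12.4%, and TGACCA, a core bound by BCL11A, before 14.8% and 11.2%. Of the 45 Slc genes called in the Tcf7 mutant 36 had a window, and 7 of them held CACGTG. Of those, 4 fell, Slc16a1, Slc43a1, Slc29a1 and Slc12a7, and 3 rose, Slc41a3, Slc38a7 and Slc12a9. The windows of the 2 that fell most and the 2 that rose most are printed to show the same word in windows of genes that moved in opposite directions, with CACGTG in capitals, 5′ to 3′ on the strand of the gene. They lie at chr3:104638414-104638663 (plus strand), chr2:84840073-84840322 (plus), chr6:90618996-90619245 (plus) and chr8:95853492-95853741 (minus) of GRCm38.p6. Each lies before the start in the RefSeq table, which need not be the first start of the gene: the windows of Slc43a1 and Slc41a3 lie inside the spans that GENCODE gives these genes, chr2:84838850-84863594 and chr6:90604725-90646412, and that of Slc38a7 overlaps the end of its span.
Slc16a1: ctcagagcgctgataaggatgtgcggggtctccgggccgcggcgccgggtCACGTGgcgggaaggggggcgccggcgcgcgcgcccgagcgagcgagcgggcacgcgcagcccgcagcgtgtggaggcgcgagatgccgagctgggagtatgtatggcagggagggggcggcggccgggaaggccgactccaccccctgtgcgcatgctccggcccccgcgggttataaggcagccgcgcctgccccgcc
Slc43a1: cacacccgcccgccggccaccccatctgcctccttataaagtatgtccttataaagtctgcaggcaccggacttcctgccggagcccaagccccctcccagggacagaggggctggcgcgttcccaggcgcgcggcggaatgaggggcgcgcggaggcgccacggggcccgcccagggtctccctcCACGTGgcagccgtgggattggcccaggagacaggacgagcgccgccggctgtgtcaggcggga
Slc41a3: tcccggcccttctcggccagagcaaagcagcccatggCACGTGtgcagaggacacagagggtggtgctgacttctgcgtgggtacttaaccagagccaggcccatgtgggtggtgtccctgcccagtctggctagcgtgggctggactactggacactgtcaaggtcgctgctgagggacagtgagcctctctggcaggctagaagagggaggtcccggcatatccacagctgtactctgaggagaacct
Slc38a7: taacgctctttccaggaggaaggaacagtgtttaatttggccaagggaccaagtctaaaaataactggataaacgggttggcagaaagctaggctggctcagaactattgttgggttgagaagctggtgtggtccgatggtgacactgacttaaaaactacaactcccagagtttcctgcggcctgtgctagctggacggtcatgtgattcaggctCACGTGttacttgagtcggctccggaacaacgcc
The first base of the word lay 200, 64, 213 and 34 bases before the start. A match of letters is a description and does not show that a factor was bound there.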

How the data were processed

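Total RNA of 11 libraries was sequenced after a modified RamDA-seq protocol, a method that primes total RNA along its length, per the labels' protocols. The submitters' processing notes name STAR 2.7.3a, HTSeq 0.11.2, edgeR, fastp 0.20.0, Picard 2.21.1 and SAMtools 1.9, with the build mm10 (GRCm38); the annotation release and the strand of counting are not given in the sources used here. The authors deposited raw counts per gene and normalised CPM in a Bcl11b and a Tcf7 table, each normalised on its own. The deposited CPM gave back the counts for 100% of values within 0.001 of a whole number.

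Symbols, lengths and positions came from GENCODE M21 by gene ID. Counts were tested with edgeR 4.0.16 (R 4.3.3; quasi-likelihood test, TMM factors, genes with a minimum count of 10 by filterByExpr, Benjamini-Hochberg adjusted p under 0.05 over all genes tested). The test kept 10910 and 12366 genes, the same as the authors listed, with 3 residual degrees of freedom per table. Each standard error is the size of the log2 change before edgeR's prior count, divided by the root of the F value. The printed log2 change includes that prior count, so at low counts the error belongs to a different estimate. The script was tested on simulated data. Total counts of 999381 to 1842717 leave genes of a few CPM with a few reads. DESeq2 1.42.0 and limma 3.58.1 (log2 of the deposited CPM plus 1) were alternatives, with other filters, scalings, a replicate block and libraries left out.

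The members and gene lists were chosen with earlier results of these data known. Named genes were the first 12 called in each direction by adjusted p, 24 nutrient carriers whatever their values, those next to the threshold and the first 2 called per direction in each list; other names were chosen after their values were seen. Some genes that this rule names are not reported here. A family of carriers was placed in a class by its main substrate. Marker sums were computed from counts over effective library sizes. Figures were drawn with matplotlib 3.10.9. No sample was left out.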

Additional observations from a re-analysis of the deposited data

Results flagged for a closer look

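For 21 Slc genes the change in D/N440K and the change in Tcf7 F/F : Vav1-Cre differed in the edgeR model over both tables (adjusted p under 0.05). The values below are the D/N440K log2 change minus the Tcf7 one, and the age of the mice and the table differ together with the genotype. The difference was above 0 for Slc22a3 (5.01, with 2 counts in the Tcf7 mutant), Slc16a1 (2.67), Slc14a1 (1.81), Slc25a24 (1.75), Slc16a10 (1.36), Slc19a1 (1.14), Slc29a1 (1.03), Slc7a1 (0.97) and Slc38a2 (0.49). It was below 0 for Slc7a8 (-4.90, with 2 counts in D/N440K), Slc7a11 (-2.60, likewise with 2 counts), Slc15a3 (-2.42), Slc41a3 (-2.26), Slc16a3 (-1.81), Slc23a2 (-1.65), Slc2a9 (-1.60), Slc25a53 (-1.53), Slc27a1 (-1.23), Slc43a2 (-1.07), Slc16a6 (-1.04) and Slc12a9 (-0.94). Slc15a3 was at -3.06 without Tcf7 +/+ replicate 1, and Slc22a3 was at 3.97 without Tcf7 +/+ replicate 2. Without Tcf7 F/F : Vav1-Cre replicate 2 or 3 Slc22a3 was at 4.42 in both cases. Slc16a5, which fell with every mutation in a direction fixed by the filter on low counts, was not among them.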

How the results depend on the processing

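No called Slc gene changed direction under any alternative tried. Over 200 pairs of a gene and a comparison, 239 results with another setting lost their call, 32 gained one and 2161 kept their side of the threshold. By DESeq2, 5 Slc genes were called in +/N440K (of 357 over all genes, against 1101 by edgeR), 8 in D/N440K (of 528, against 1353), 0 in D/N440K against +/N440K (of 4, against 58), 30 in the Tcf7 mutant (of 1961, against 2863) and 16 for the difference (of 898, against 1407). With no filter on low counts 22 were called in the Tcf7 mutant, where about 2 times as many genes were tested (25557) and 1606 were called over all genes, and 1 in D/N440K against +/N440K. With limma 1 was called in that last comparison. Leaving out 1 library gave 9 to 19 Slc genes in +/N440K, 15 to 19 in D/N440K, 0 to 1 in D/N440K against +/N440K, 29 to 76 in the Tcf7 mutant and 16 to 49 for the difference; where it leaves a group with 1 library, that library is assumed to vary like the other groups. Both highest counts come without Tcf7 +/+ replicate 1 (4612 genes over all in the Tcf7 mutant, and 44 of the 45 Slc genes still called), and the lowest without +/+ replicate 1, D/N440K replicate 1, Tcf7 F/F : Vav1-Cre replicate 3 and, for the difference, +/+ replicate 1. The cause was not tested. A filter at CPM of 5 in 2 libraries kept more genes (12484 and 12765) than the one used. With the replicate number as a block 14, 22, 0, 34 and 19 Slc genes were called in the 5 comparisons. Same-numbered libraries did not deviate together (correlations -0.233 to 0.146). With groups of 2 or 3 libraries this cannot decide whether the numbers pair the samples. Groups of 2 or 3 libraries and 999381 to 1842717 counts each limit what could be called, and genes under a few CPM rest on single reads.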
